A study of Homo sapiens with 14 samples.

Results

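The comparison described here is the earliest step of a starvation course in MiaPaCa2 cells, an established human pancreatic carcinoma line: 3 h in Earle's balanced salt solution (EBSS) against 0 h. It uses 4 of the 14 arrays of the series, chosen by their labels as those of the Nupr1 set at 3 h and at 0 h. The starved arrays are siNupr1 at 3 h in EBSS and siCtrl at 3 h in EBSS, and each is set against the 0 h array of the same siRNA, which gives 2 pairs. siCtrl is a scrambled siRNA with no known target and siNupr1 is directed at NUPR1, a small stress-inducible chromatin-associated protein. Both were delivered with INTERFERin, so that all 4 groups share a transfection. The same set holds siNupr1 and siCtrl arrays at 6 and 9 h in EBSS, and a further set of 6 arrays holds siRelB, siRelA and siCtrl cells at 9 h in EBSS or in a medium labelled mock, with no composition stated. There was 1 array for each siRNA in each medium at each time, and nothing in the labels says that arrays came from separate cultures. The p-values therefore rest on no spread between replicates. They rest on the spread that the fit over all 14 arrays leaves after siRNA and time or medium. That spread may be technical, and it also holds any difference in response between the siRNAs. The titles of the 0 h arrays name DMEM, the growth medium with serum, whereas the source names of these arrays give EBSS at 0 h, and the 0 h cells were taken as unstarved. There was no array at 3 h in full medium, so EBSS and the 3 h in culture cannot be told apart.

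EBSS holds salts but no amino acids and no serum growth factors. The labels also describe it as free of glucose, although the usual formula of this buffer contains glucose. Loss of amino acids leaves transfer RNAs uncharged, which activates the kinase GCN2; phosphorylation of eIF2 then lowers general translation but favours translation of ATF4, a transcription factor that switches on amino acid synthesis, amino acid import and stress genes. The same loss switches off mTORC1, the kinase complex that drives growth and restrains autophagy. Loss of serum removes the mitogens that carry cells past the G1 restriction point, where E2F factors turn on the genes of DNA replication, and it lifts the AKT-dependent exclusion of FOXO factors from the nucleus.

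The values are log2 array intensities, and every difference below is a log2 difference of 3 h minus 0 h from a limma fit, given ± SE with n = 2 pairs unless stated. The medians of the 4 arrays lay between 5.74 and 5.78, and precision is limited by having so few of them. The keratin genes KRT8 and KRT18, of simple epithelia, were bright on every array (12.68 to 12.96 at 3 h and 12.85 to 13.02 at 0 h), while the epithelial adhesion genes EPCAM and CDH1 lay under the filter level of 5.805. Of 4 endothelial markers 0 passed that filter, of 3 acinar markers only CELA3A and of 4 leukocyte markers only CD14 did, and the summed level of the leukocyte list was 19.0 to 19.6 at 3 h and 18.9 to 19.2 at 0 h. Of 6 fibroblast markers 3 passed, with a summed level of 33.9 to 34.0 at 3 h and 33.8 to 34.4 at 0 h, and the collagen gene COL1A2, which carcinoma lines can also express, fell (-0.73 ± 0.15), a call lost without the siNupr1 3 h array (adjusted p = 0.0632). The part of these lists in the results was not tested, and in bulk RNA fewer cells of a type and less RNA per cell cannot be told apart. NUPR1 itself checks the siRNA: it read 6.33 with siNupr1 and 7.25 with siCtrl at 3 h, against 5.59 with siNupr1 and 6.27 with siCtrl at 0 h. It was lower with siNupr1 at each time and higher at 3 h in each pair, by 0.74 and 0.98 (0.86 ± 0.14, adjusted p = 0.000595). Its siNupr1 0 h value lay under the filter level of 5.805, so the differences that rest on that array are less sure. The labels give these 2 siRNAs against NUPR1, shown because they define the silenced pair, and do not say which was on these arrays (RNA strand, 5′ to 3′, without the overhangs).
siNupr1: ggaggacccaggacaggau
siNupr1#2: aggucgcaccaagagagaa

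The first 3 h already held strong changes in named stress and growth genes. Stress regulators of the ATF4 response, the cystine importer SLC7A11 and growth-factor-type immediate early genes rose, while the ID genes, the S-phase ubiquitin ligase gene SKP2 and the genes that license and start DNA replication fell. Of 11026 genes tested, 361 (3.27%) rose and 1000 (9.07%) fell at a Benjamini-Hochberg adjusted p under 0.05, and 32 (0.29%) and 39 (0.354%) of them did so at least 2-fold. The median difference was 0.55 among the genes that rose and -0.51 among those that fell, against -0.03 over all tested genes. Every one of the 361 and 1000 moved the same way in both pairs, as did 8038 of all 11026 tested genes. The called genes were 12.3% of those tested, and the 3 h arrays did not overlap the 0 h arrays for 338 and 916 of them, where 19.1% of all tested genes lay wholly above and 24.2% wholly below.

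The largest rise was that of DDIT3, which encodes the stress transcription factor CHOP. DDIT3 read 8.87 with siNupr1 and 9.60 with siCtrl at 3 h, against 6.42 with siNupr1 and 6.71 with siCtrl at 0 h, a 6.39-fold difference (2.68 ± 0.19, adjusted p = 6.2e-08). SLC7A11, the cystine and glutamate exchanger, read 8.31 and 8.93 at 3 h in siNupr1 and siCtrl cells, against 6.14 and 6.64 at 0 h (2.23 ± 0.17, adjusted p = 9.6e-08). For these genes the lowest 3 h array lay far above the highest 0 h array. EGR1, a zinc finger factor made within minutes of growth factor or stress signals, read 10.19 with siNupr1 and 11.40 with siCtrl at 3 h, against 8.59 and 8.65 at 0 h (2.17 ± 0.20, adjusted p = 8.76e-07). CREBRF, a regulator linked to nutrient stress, rose by 1.97 ± 0.16, with 7.74 and 8.32 at 3 h against 5.92 and 6.21 at 0 h in siNupr1 and siCtrl cells. Next in size were PPP1R15A (GADD34), which brings a phosphatase to eIF2 and so restores translation (1.90 ± 0.17), the ubiquitin ligase adaptor gene KLHL24 (1.85 ± 0.14), GEM, a small GTPase gene (1.68 ± 0.15), and HBP1, a repressor of cell cycle genes (1.67 ± 0.16). LIF, a cytokine gene of the IL6 family, rose by 1.53 ± 0.14. The first 12 rises ended with SESN2 (1.53 ± 0.22), which restrains mTORC1, CTH, the last enzyme of cysteine synthesis (1.51 ± 0.19), and CHAC1, which breaks down glutathione (1.48 ± 0.19).

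ID2 and ID3, inhibitors of helix-loop-helix transcription factors, fell most. ID2 read 6.02 with siNupr1 and 6.18 with siCtrl at 3 h, against 8.68 with siNupr1 and 8.46 with siCtrl at 0 h (-2.47 ± 0.22, adjusted p = 8.76e-07). ID3 read 7.63 and 7.45 at 3 h in siNupr1 and siCtrl cells, against 9.32 and 9.23 at 0 h (-1.74 ± 0.12, adjusted p = 3.33e-08). For ID2 and ID3 every 3 h array lay below every 0 h array. LPCAT1, an enzyme of phospholipid remodelling, differed by -1.45 ± 0.14. SKP2, which marks the CDK inhibitor p27 for destruction, read 7.40 and 8.07 at 3 h against 8.90 and 9.38 at 0 h (-1.40 ± 0.14). The others among the 12 largest falls were ERCC6L, a mitotic helicase gene (-1.33 ± 0.12), ID1 (-1.32 ± 0.12), CDC6, the replication licensing factor (-1.31 ± 0.12), the interferon-inducible gene IFIT5 (-1.30 ± 0.16), the nuclease gene EXO1 (-1.28 ± 0.14), ORC1 of the origin recognition complex (-1.22 ± 0.13), and the mitochondrial genes ATPSCKMT (-1.27 ± 0.16) and TIMM21 (-1.16 ± 0.12). The calls of these 24 genes were kept in every other fit that tested them. There were 26 such fits, which left out an array or changed the processing, and the stricter filter on dim genes did not test CREBRF, GEM, ID2, ERCC6L, IFIT5 and ATPSCKMT. The total counts were less steady: without the siNupr1 3 h, siCtrl 3 h or siCtrl 0 h array, 136, 157 and 149 genes rose and 220, 317 and 350 fell. Rises made up 26.5% of the called genes on the deposited values, 42.7% after a further quantile normalization and 41.5% after removal of the trend with genomic span.

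**Figure D1:**
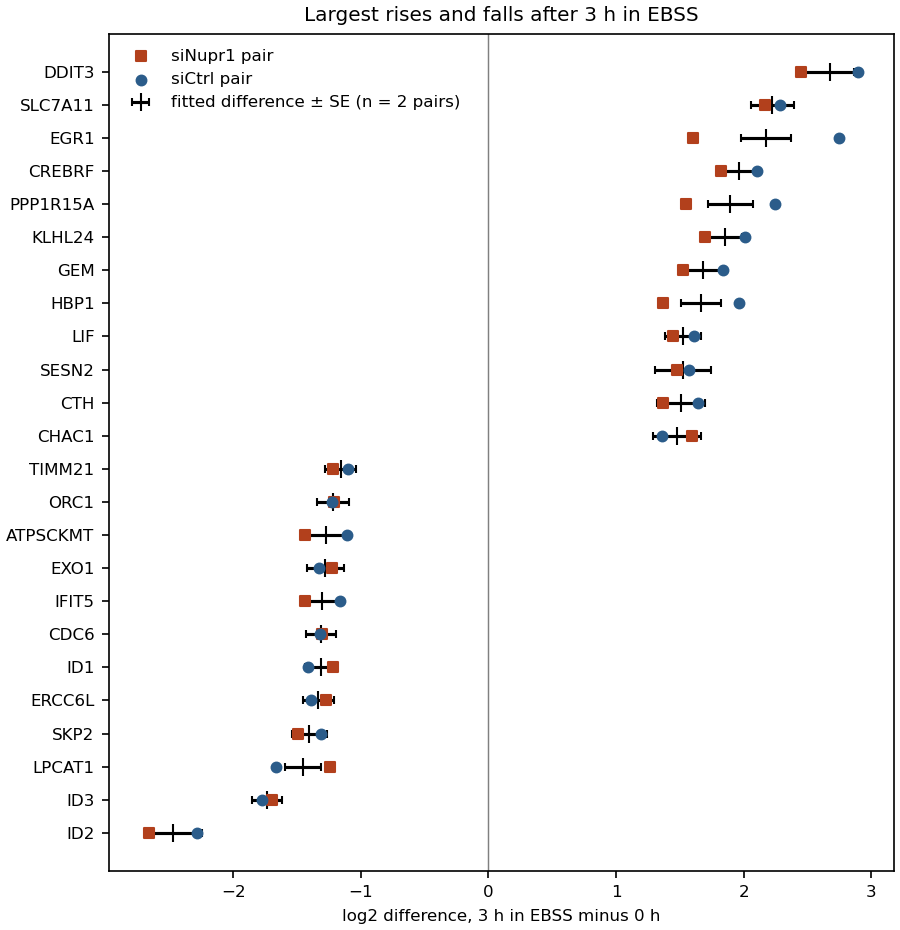
The 12 largest rises and the 12 largest falls after 3 h in EBSS. The x axis is the log2 difference of 3 h minus 0 h, squares are the siNupr1 pair, circles the siCtrl pair, and the bar is the fitted difference ± SE (n = 2 pairs). All squares and circles lie on the same side of 0 as their bar, and the pairs lie widest apart for EGR1 (1.60 with siNupr1 and 2.74 with siCtrl).

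Genes of the ATF4 and amino acid response rose together. Of 27 tested members 20 (74.1%) rose and 0 fell, with a median difference of 0.63. This list and those below were chosen with earlier results of these data known, so their shares are not independent of the data. Besides DDIT3, PPP1R15A, KLHL24, SESN2, CTH and CHAC1, the pseudokinase gene TRIB3, the mTORC1 inhibitor gene DDIT4, the transcription factor genes CEBPB, CEBPG and ATF3, NUPR1, the NKG2D ligand gene ULBP1 and the lipoprotein receptor gene VLDLR rose. So did genes of synthesis: PCK2, ASNS (asparagine), PHGDH and PSPH (serine), SHMT2 and MTHFD2 (one-carbon units). ASNS, singled out after its values were seen, read 10.81 with siNupr1 and 10.82 with siCtrl at 3 h, against 10.11 and 10.31 at 0 h (0.60 ± 0.10, adjusted p = 0.000727). The ATF4 mRNA itself read 7.94 and 8.04 at 3 h against 7.54 and 7.84 at 0 h in siNupr1 and siCtrl cells, and its difference of 0.30 ± 0.12 did not pass (adjusted p = 0.117). PSAT1 (0.38 ± 0.12, adjusted p = 0.0505), ATF5 (0.16 ± 0.13) and the tRNA exporter gene XPOT (-0.03 ± 0.11) did not pass either. When the siNupr1 3 h, siCtrl 3 h, siNupr1 0 h or siCtrl 0 h array was left out, 14, 15, 17 and 14 members rose.

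The composite site that ATF4 and C/EBP factors share, searched as TGATGNAA on both strands, was found in the promoters of 3 of the 17 risen members with a promoter in the RefSeq table (17.6%; ASNS, CHAC1 and ATF3). It was found in 3 of 9 risen amino acid transporter genes (33.3%), in 4.88% of the promoters of all genes that rose, and in 1.53% of those of all tested genes and 3.67% of the 27305 promoters of the table. A promoter here is 250 bases before to 50 after the start site. The stretches below show where the site lies in members that rose, on the strand of the gene (RefSeq, GRCh38.p14), with the site in capitals. It begins at position -68 from the start site in ASNS, -209 in CHAC1, -191 in ATF3 and -187 in AARS1, a tRNA synthetase gene described next. List members that did not rise were not counted separately, and a match is a description of the letters only.
ASNS (chr7:97872428-97872517, minus strand): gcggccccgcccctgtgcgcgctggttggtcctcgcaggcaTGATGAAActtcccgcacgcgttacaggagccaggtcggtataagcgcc
CHAC1 (chr15:40953221-40953310, plus strand): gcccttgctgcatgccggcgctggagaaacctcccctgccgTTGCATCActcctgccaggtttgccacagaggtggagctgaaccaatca
ATF3 (chr1:212565175-212565264, plus strand): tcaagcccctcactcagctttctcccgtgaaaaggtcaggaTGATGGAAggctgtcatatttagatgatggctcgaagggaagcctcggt
AARS1 (chr16:70289645-70289734, minus strand): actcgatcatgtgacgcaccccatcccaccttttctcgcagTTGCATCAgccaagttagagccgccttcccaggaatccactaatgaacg

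Genes that bring amino acids into the cell, and some that charge them onto tRNA, changed as well. Of 15 amino acid transporter genes 10 (66.7%) rose and 2 (13.3%) fell, and of 19 cytosolic aminoacyl-tRNA synthetase genes 6 (31.6%) rose and 2 (10.5%) fell. SLC3A2, the heavy chain that SLC7A11 and SLC7A5 pair with, read 10.78 with siNupr1 and 10.99 with siCtrl at 3 h, against 9.92 and 9.91 at 0 h (0.97 ± 0.09, adjusted p = 1.43e-06). SLC43A1, which carries branched-chain amino acids, rose by 0.80 ± 0.13. The serine and alanine transporter gene SLC1A4 (0.91 ± 0.17), the glycine transporter gene SLC6A9 (0.68 ± 0.15) and the arginine transporter gene SLC7A1 (0.63 ± 0.14) rose too, but leaving out the siNupr1 3 h array ended these calls (adjusted p = 0.0874, 0.103 and 0.0959). SLC38A9, a lysosomal arginine sensor for mTORC1, and SLC7A6 were the transporters that fell. Among the synthetases, CARS1 for cysteine read 9.84 with siNupr1 and 10.01 with siCtrl at 3 h against 9.14 and 8.92 at 0 h (0.90 ± 0.15, adjusted p = 0.000727). AARS1 for alanine rose by 0.69 ± 0.09 and SARS1 for serine by 0.60 ± 0.10, and MARS1, YARS1 and GARS1 were the other risen members. RARS1 for arginine (-0.53 ± 0.10) and FARSB fell. Without the siNupr1 3 h and the siCtrl 0 h array 4 and 5 transporters and, in each case, 3 synthetases rose. The falls in these lists were weaker calls: without either 3 h array 0 transporters fell, and without the siNupr1 3 h or siCtrl 0 h array 0 synthetases fell.

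Genes listed under mTORC1 restraint or autophagy rose in small number. Of 15 tested genes in the list of mTORC1 restraints 4 (26.7%) rose and 2 (13.3%) fell. SESN2, DDIT4 (1.19 ± 0.18), FLCN (1.03 ± 0.12) and FNIP1 (0.79 ± 0.13) rose, while SESN1 (-0.55 ± 0.16) and DDIT4L (-0.53 ± 0.14) fell, these last calls being lost without either 3 h array. FLCN and FNIP1 encode the folliculin complex of the lysosome surface, which is not simply a restraint of mTORC1. SESN2 and DDIT4 are also in the ATF4 list, and FLCN is also in the autophagy list. FLCN read 8.16 with siNupr1 and 8.28 with siCtrl at 3 h, against 7.13 and 7.25 at 0 h, the same difference of 1.03 in each pair. Of 35 autophagy and lysosome genes 7 (20.0%) rose and 0 fell. MAP1LC3B, whose product coats the autophagosome membrane, read 7.60 and 7.78 at 3 h in siNupr1 and siCtrl cells, against 7.01 and 6.59 at 0 h (0.89 ± 0.15, adjusted p = 0.000776). SQSTM1, the autophagy receptor p62, rose by 0.68 ± 0.10. GABARAPL1, ATG13 and TFE3 were among the other risen members. With the siNupr1 3 h or the siCtrl 3 h array left out 3 and 4 members of the list rose.

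Immediate early genes, which growth factors and stress switch on without new protein synthesis, rose as a group of factors. Of 28 tested factors 22 (78.6%) rose and 0 fell, with a median difference of 0.71. JUN, an AP-1 subunit, read 9.97 with siNupr1 and 10.72 with siCtrl at 3 h, against 9.21 and 9.12 at 0 h (1.18 ± 0.17, adjusted p = 0.000161). BHLHE40, a circadian and stress repressor, rose by 1.12 ± 0.12, KLF4 by 1.06 ± 0.16, the AP-1 subunit gene FOS by 1.04 ± 0.15 and KLF6 by 0.98 ± 0.14. FOS read 6.79 and 7.46 at 3 h in siNupr1 and siCtrl cells, against 6.15 and 6.02 at 0 h, so that the arrays did not overlap. The other risen members were EGR3, MAFF, MYC, IER3, ATF3, FOSB, MAFG, JUNB, ZFP36, KLF11, JUND, KLF10, EGR4, IER2, FOSL2 and FOSL1. Without the siNupr1 3 h, siCtrl 3 h or siCtrl 0 h array 15, 14 and 12 rose.

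The feedback genes of the ERK kinase pathway moved less than the factors. Of 18 tested 7 (38.9%) rose and 0 fell, with a median of 0.30. SPRED2, an inhibitor of RAS signalling, read 8.86 with siNupr1 and 8.83 with siCtrl at 3 h, against 8.07 and 7.99 at 0 h (0.81 ± 0.12, adjusted p = 0.000222). ERRFI1, which binds and inhibits the EGF receptor, rose by 0.70 ± 0.10 and IER3 by 0.82 ± 0.14. DUSP1 and DUSP6, phosphatases of MAP kinases, did not pass, with -0.07 ± 0.15 (adjusted p = 0.804) and 0.23 ± 0.15 (adjusted p = 0.357). DUSP8 (0.52 ± 0.15), DUSP16 (0.50 ± 0.15), ETV5 (0.47 ± 0.14) and PHLDA1 rose, and without the siCtrl 3 h or the siCtrl 0 h array 3 members of the list rose in each case. Of 5 tested EGF receptors and ligands, the ligand gene EREG rose by 0.79 ± 0.10, with 10.09 and 10.60 at 3 h in siNupr1 and siCtrl cells, against 9.41 and 9.71 at 0 h. HBEGF rose by 0.57 ± 0.18, with 0.11 in the siNupr1 and 1.04 in the siCtrl pair, a call lost without either siCtrl array (adjusted p of up to 0.592). Of 15 YAP-TEAD targets, CCN1 (1.39 ± 0.20) and AMOTL2 (0.67 ± 0.16) rose, and AMOTL2 lost its call without either siCtrl array.

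The promoter of EGR1, the immediate early gene with the largest difference, is shown because of its CArG box, the site of serum response factor. Of the 22 risen immediate early factors 17 had a promoter in the table, and only that of EGR1 held such a box. The search covered 250 bases before to 50 after the start site, so it does not say whether other factors have a box farther away. Its stretch holds 2 boxes, in capitals, the first at position -105 from the start site. Such a box was in 1.06% of the promoters of tested genes and in 2.09% of those of genes that rose.
EGR1 (chr5:138465334-138465423, plus strand): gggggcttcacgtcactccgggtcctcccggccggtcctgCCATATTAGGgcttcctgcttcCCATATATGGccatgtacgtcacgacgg

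FOXO targets and related genes were mixed, with 8 of 22 (36.4%) that rose and 2 (9.09%) that fell. BCL6, a transcriptional repressor, read 7.66 with siNupr1 and 8.14 with siCtrl at 3 h, against 6.40 and 6.72 at 0 h (1.34 ± 0.13, adjusted p = 1.43e-06). CCNG2, a cyclin linked to cell cycle exit, rose by 1.17 ± 0.13, YPEL2 by 1.19 ± 0.17, and IRS2, the adaptor of the insulin receptor, by 0.92 ± 0.12. KLHL24, GADD45A, KLF15 and YPEL5 rose as well. The arrestin gene ARRDC3 fell, with 7.06 and 7.27 at 3 h in siNupr1 and siCtrl cells against 8.25 and 8.19 at 0 h (-1.05 ± 0.19, adjusted p = 0.00104), and the call was lost without the siNupr1 3 h array (adjusted p = 0.0898). Of 11 genes of MYC and its dimer network, MYC rose by 0.83 ± 0.11, with 11.45 and 11.67 at 3 h against 10.88 and 10.59 at 0 h. MNT (0.84 ± 0.15) and MXD1 (0.99 ± 0.19), which compete with MYC for its partner MAX, rose too. MNT lost its call without the siNupr1 3 h array and MXD1 without either siCtrl array (adjusted p of up to 0.0726 and 0.11).

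Other stress lists held a few rises each, where 3.27% of all tested genes rose and 9.07% fell. Of 22 canonical NF-kB targets 7 (31.8%) rose and 0 fell. These were LIF, IER3, RELB (0.80 ± 0.17), NFKB2 (0.64 ± 0.13), TNFRSF9 (0.57 ± 0.15), PLAU and BCL2L1, and 3 members rose without the siNupr1 3 h array and 3 without the siCtrl 0 h array. Of 15 hypoxia targets 5 (33.3%) rose and 2 (13.3%) fell. The growth factor gene VEGFA read 8.09 and 8.45 at 3 h in siNupr1 and siCtrl cells, against 7.15 and 7.48 at 0 h (0.96 ± 0.15, adjusted p = 0.000301). Without the siNupr1 3 h array 3 hypoxia targets rose, and 3 without the siCtrl 0 h array. Of 22 genes of glycolysis and glucose uptake 1 (4.55%) rose and 1 (4.55%) fell, near or below the shares of all tested genes. The glucose transporter gene SLC2A3 rose by 0.97 ± 0.14 and LDHA fell by 0.24 on the log2 scale, a call lost without any 1 of the 4 arrays (adjusted p of up to 0.255). Of 17 NRF2 targets 3 (17.6%) rose, SLC7A11, OSGIN1 (0.75 ± 0.13) and HMOX1 (0.63 ± 0.16), and 1 (5.88%), TXN, fell. HMOX1 was lost without the siNupr1 3 h or siCtrl 0 h array.

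The zinc exporter and some metallothionein genes rose. Of 11 tested members 6 (54.5%) rose and 0 fell. The zinc exporter gene SLC30A1 read 9.26 with siNupr1 and 9.38 with siCtrl at 3 h, against 8.22 and 8.35 at 0 h (1.03 ± 0.12, adjusted p = 8.8e-06). MT1M (0.59 ± 0.13), MT1X (0.57 ± 0.11), MT1E (0.36 ± 0.09), MT2A (0.30 ± 0.06) and MT1G (0.25 ± 0.08) followed. Metallothionein genes are near-identical copies, so which of them a probe cluster measured is uncertain. Without the siNupr1 3 h, siCtrl 3 h or siCtrl 0 h array 2, 4 and 3 members rose. Of 16 BCL2 family genes, the pro-apoptotic BBC3 (0.64 ± 0.12) and the anti-apoptotic MCL1 (0.46 ± 0.13) and BCL2L1 (0.45 ± 0.12) rose, and 0 of the list rose without the siCtrl 3 h array.

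On the falling side, the ID genes stood out within their own list. Of 13 ID genes and BMP-SMAD targets ID1, ID2, ID3 and BAMBI fell and TGIF1 rose. ID1 read 8.03 with siNupr1 and 7.81 with siCtrl at 3 h, against 9.25 and 9.22 at 0 h. BAMBI, a decoy receptor of the pathway, differed by -0.55 ± 0.17, with calls lost without 3 of the 4 arrays (adjusted p of up to 0.361), and TGIF1 by 0.42 ± 0.13, lost without any 1 of the 4 (adjusted p of up to 0.312). SMAD6, itself a target of BMP signals, did not pass (-0.32 ± 0.13, adjusted p = 0.122).

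Genes of entry into S phase and of DNA replication fell together, and 0 rose. Of 47 tested replication genes 31 (66.0%) fell, 47 of 47 had a difference below 0, and the median was -0.50. Licensing and initiation genes fell: CDC6, ORC1, ORC6, CDT1, MCM2 to MCM6, MCM10, CDC7, GINS1 and GINS2. So did genes of the fork, among them PCNA, the sliding clamp, RFC2, RFC3 and RFC4 of its loader, the polymerase and primase subunit genes POLA1, POLA2, POLE2, POLD3, PRIM1 and PRIM2, and FEN1. CDC6 read 8.69 with siNupr1 and 8.53 with siCtrl at 3 h, against 9.99 and 9.86 at 0 h. GINS2, of the replicative helicase, read 7.83 and 7.59 at 3 h against 8.89 and 8.78 at 0 h in siNupr1 and siCtrl cells (-1.13 ± 0.14, adjusted p = 2.38e-05). PCNA read 8.88 and 8.98 at 3 h against 9.93 and 10.16 at 0 h (-1.11 ± 0.12, adjusted p = 5.03e-06). The nucleotide supply genes RRM2, RRM1 and TYMS and the chromatin genes CHAF1A, CHAF1B and UHRF1 fell too, and CLSPN, whose product Claspin guards stalled forks, fell by 1.11 on the log2 scale. Without the siNupr1 3 h, siCtrl 3 h, siNupr1 0 h or siCtrl 0 h array 17, 22, 27 and 21 members fell.

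E2F sites, searched as TTTCCCGC and TTTGGCGC on both strands, were found in 13 of the 28 fallen replication genes with a promoter in the table (46.4%). Replication genes that were not called were not counted separately, so this share cannot be tied to the fall. A match describes the letters only. The share was 6.4% among all genes that fell, 2.09% among those that rose, and 3.81% among 8849 tested genes with a promoter (2.31% of the 27305 promoters of the table). The stretches of 6 of them are shown because these genes fell together, with the site in capitals. It begins at -59 in PCNA, -31 in GINS2, -35 in CDT1, -174 in MCM3, -152 in MCM6 and -14 in UHRF1.
PCNA (chr20:5126633-5126722, minus strand): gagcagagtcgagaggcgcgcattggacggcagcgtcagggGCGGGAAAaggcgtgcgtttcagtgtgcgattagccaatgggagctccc
GINS2 (chr16:85688955-85689044, minus strand): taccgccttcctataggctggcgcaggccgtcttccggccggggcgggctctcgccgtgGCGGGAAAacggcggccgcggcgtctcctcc
CDT1 (chr16:88803699-88803788, plus strand): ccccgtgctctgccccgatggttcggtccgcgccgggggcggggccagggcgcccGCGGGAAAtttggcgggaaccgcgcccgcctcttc
MCM3 (chr6:52284868-52284957, minus strand): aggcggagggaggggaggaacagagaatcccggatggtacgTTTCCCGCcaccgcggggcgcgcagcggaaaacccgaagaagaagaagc
MCM6 (chr2:135876547-135876636, minus strand): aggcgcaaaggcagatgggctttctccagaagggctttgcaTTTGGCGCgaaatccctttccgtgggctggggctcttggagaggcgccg
UHRF1 (chr19:4909411-4909500, plus strand): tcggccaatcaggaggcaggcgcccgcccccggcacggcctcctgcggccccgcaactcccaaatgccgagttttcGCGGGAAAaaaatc

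Of 21 G1 cyclins, CDK inhibitors and their regulators 9 (42.9%) fell and 0 rose. CCNE1, the cyclin that starts S phase, read 8.07 with siNupr1 and 7.93 with siCtrl at 3 h, against 9.00 and 8.78 at 0 h (-0.89 ± 0.15, adjusted p = 0.000803). CDC25A, the phosphatase that activates CDK2, differed by -1.07 ± 0.18 and E2F8 by -0.95 ± 0.14, and E2F7, E2F2, RBL1, CCND3 and CCND1 also fell. Of 43 mitosis genes 24 (55.8%) fell and 0 rose, with a median of -0.42. SPC25, of the kinetochore (-1.02 ± 0.17), KIF20A, a motor of cytokinesis (-1.02 ± 0.13), MKI67, the proliferation marker (-0.84 ± 0.12), and CDK1 (-0.82 ± 0.12) were among them. KIF20A read 8.17 and 8.89 at 3 h in siNupr1 and siCtrl cells, against 9.46 and 9.62 at 0 h. The mitosis count rested on single arrays more than the replication count did: without the siNupr1 3 h, siCtrl 3 h or siCtrl 0 h array 6, 11 and 11 members fell, and 5 genes of the G1 list in each case.

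Some chaperone genes of the cytosol and of the endoplasmic reticulum fell. Of 20 heat shock protein genes 10 (50%) fell and 0 rose, with a median of -0.33. DNAJA1, a cytosolic co-chaperone of HSP70, read 8.69 with siNupr1 and 8.65 with siCtrl at 3 h, against 9.41 and 9.56 at 0 h (-0.81 ± 0.12, adjusted p = 0.000178). HSPA8, the constitutive HSP70, differed by -0.32 ± 0.06 (adjusted p = 0.000803). HSPA4L, CHORDC1, HSPH1, HSPE1, HSP90AA1, HSPA4, HSPD1 and BAG3 also fell, and 3, 4 and 3 members fell without the siNupr1 3 h, siCtrl 3 h or siCtrl 0 h array. The unit pair of a heat shock element, searched as GAANNTTC (its own reverse complement), lay in the promoters of 3 of the 10 (30%: HSPA8, CHORDC1 and DNAJA1), against 4.15% of tested genes. Heat shock protein genes that were not called were not counted separately, and a match describes the letters only. HSPA8 and DNAJA1 are shown, with a pair in capitals at -230 and -198.
HSPA8 (chr11:123062297-123062386, minus strand): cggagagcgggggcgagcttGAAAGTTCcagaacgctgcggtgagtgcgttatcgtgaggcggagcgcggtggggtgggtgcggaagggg
DNAJA1 (chr9:33025034-33025123, plus strand): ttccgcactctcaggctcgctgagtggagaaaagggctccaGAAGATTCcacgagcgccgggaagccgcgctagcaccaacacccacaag

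Of 23 genes of ER chaperones and the unfolded protein response 7 (30.4%) fell and 2 (8.7%) rose. The 2 that rose were HERPUD1, of ER-associated degradation, with 10.28 and 10.90 at 3 h in siNupr1 and siCtrl cells against 9.28 and 9.41 at 0 h (1.25 ± 0.13, adjusted p = 4.6e-06), and XBP1 (0.68 ± 0.13), a factor that ATF6 and PERK signals raise. XBP1 lost its call without the siCtrl 0 h array (adjusted p = 0.0662). DNAJB11 (-0.52 ± 0.10), HSP90B1, EIF2AK3, DNAJC3, CALR, CANX and PDIA6 fell, and 2, 1, 3 and 1 members fell without the siNupr1 3 h, siCtrl 3 h, siNupr1 0 h or siCtrl 0 h array.

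Genes of ribosome building fell in part. Of 35 ribosome biogenesis genes 10 (28.6%) fell and 0 rose, and RRS1, an assembly factor of the large subunit, read 7.01 with siNupr1 and 7.26 with siCtrl at 3 h, against 7.89 and 8.03 at 0 h (-0.83 ± 0.13, adjusted p = 0.000262). LYAR, NOP58, UTP3, LTV1, NOP16, DKC1, NCL, UTP20 and NOLC1 fell too, but 2, 3 and 1 members fell without the siNupr1 3 h, siCtrl 3 h or siCtrl 0 h array. Of 24 ribosomal protein genes only RPL5 fell (-0.18 ± 0.06, adjusted p = 0.0422), a call lost without any 1 of the 4 arrays, and 0 rose. Of 27 respiratory chain subunits 3 (11.1%, near the 9.07% of all tested genes) fell, NDUFB3, NDUFV2 and NDUFA1. Of 27 nuclear pore and mRNA export genes 5 (18.5%) fell, NUP107, NUP35, THOC1, XPO1 and ALYREF, and in each list 0 fell when either 3 h array was left out, as did 0 nuclear pore genes without the siCtrl 0 h array. Of 24 genes of cholesterol and fatty acid synthesis 2 (8.33%) rose, DHCR7 (0.50 ± 0.10) and SREBF1 (0.43 ± 0.12), and 1 (4.17%), INSIG2 (-0.72 ± 0.15), fell. In this list 0 rose without the siNupr1 3 h, siCtrl 3 h or siCtrl 0 h array. Of 15 interferon-stimulated genes 1 (6.67%), IFIT2, rose (0.84 ± 0.15) and 1 (6.67%), IFIT1, fell (-0.65 ± 0.18). The call of IFIT1 was lost without 3 of the 4 arrays (adjusted p of up to 0.438). Of 15 listed non-coding host genes of small nucleolar RNAs only 3 had a cluster of their own and were tested. These 3, EPB41L4A-AS1 (0.81 ± 0.13), SNHG17 (0.57 ± 0.12) and ZFAS1 (0.53 ± 0.14), rose, although SNHG17 was at -0.02 when its clusters were averaged.

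**Figure D2:**
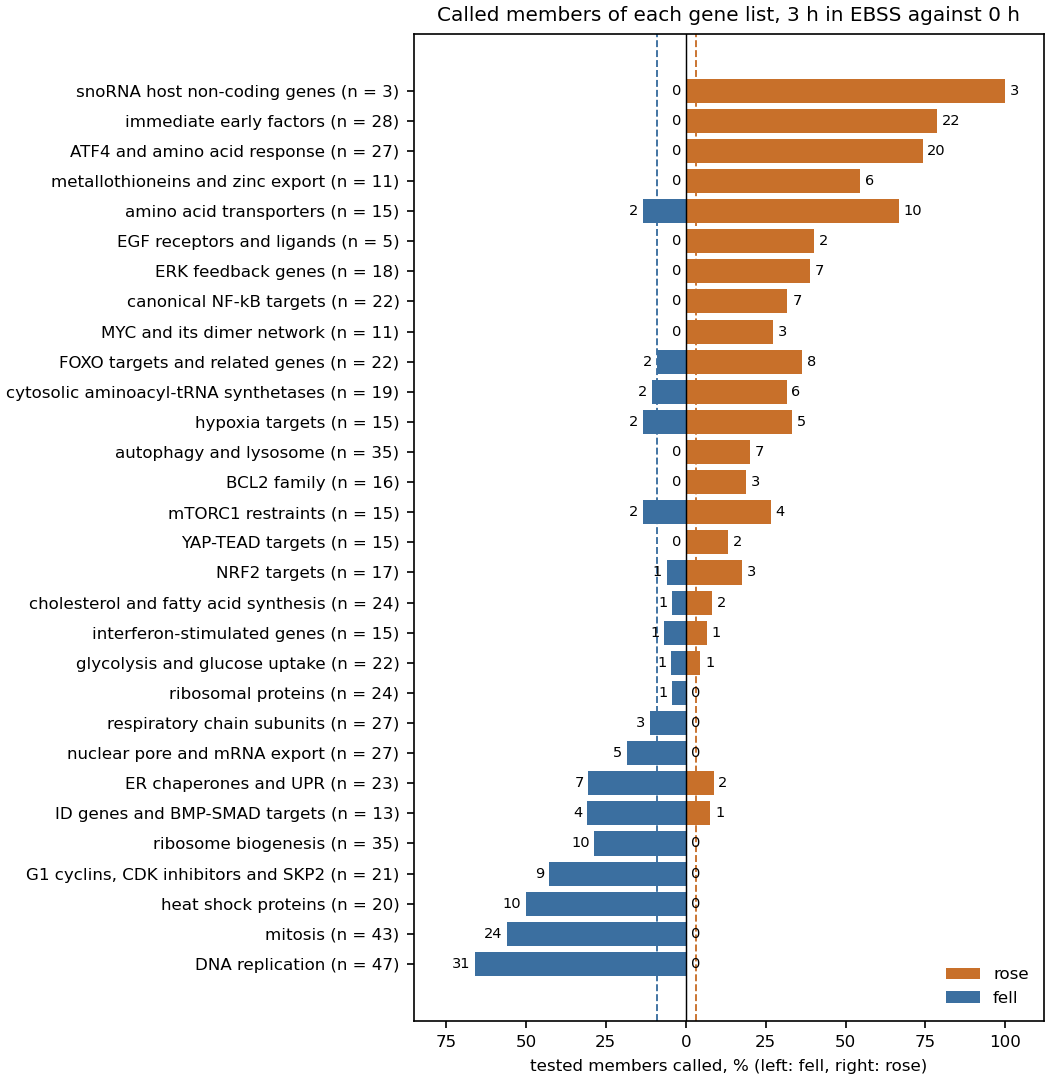
Share of the tested members of each gene list described here that rose (right of 0) or fell (left of 0) after 3 h in EBSS, in percent, with the number of members called at the end of each bar and the number tested (n) beside the name; dashed lines mark the 3.27% of all tested genes that rose and the 9.07% that fell. Immediate early factors (22 of 28) and the ATF4 and amino acid response (20 of 27) have the longest bars to the right among the lists with more than 3 tested members, and DNA replication (31 of 47) and mitosis (24 of 43) the longest to the left. The lists were chosen with earlier results of these data known.

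How far the first changes went on was read from the contrast of 9 h minus 3 h, which shares the 3 h arrays with the comparison above, so values are given side by side and no overlap of calls is drawn from them. The title of the siNupr1 9 h array names another siRNA than its other labels do. In it 516 genes (4.68%) rose and 293 (2.66%) fell. EGR1 and GEM were highest at 3 h: EGR1 read 9.48 with siNupr1 and 10.42 with siCtrl at 9 h, and was lower at 9 h than at 3 h by a difference of -0.85 ± 0.20 (adjusted p = 0.0131). GEM read 7.24 and 6.58 at 9 h in siNupr1 and siCtrl cells, against 7.88 and 7.70 at 3 h (-0.88 ± 0.15, adjusted p = 0.00123). SLC7A11 went on rising, to 9.79 and 9.77 at 9 h (1.16 ± 0.17, adjusted p = 0.000527), while DDIT3 differed by 0.10 ± 0.19 between 9 and 3 h (adjusted p = 0.803). The ID genes parted after 3 h. ID3 fell further, to 6.53 and 6.43 at 9 h (-1.06 ± 0.12, adjusted p = 3.3e-05), ID1 came back to 8.49 and 8.59 (0.62 ± 0.12, adjusted p = 0.00437), and ID2 differed by -0.05 ± 0.22 (adjusted p = 0.92). SKP2 (-0.93 ± 0.14) and ORC1 (-0.75 ± 0.13) fell further, and CDC6 did not pass (-0.10 ± 0.12, adjusted p = 0.644). Of the transporters SLC43A1, SLC6A9 and SLC1A4 rose further, by 0.77 ± 0.13, 0.90 ± 0.15 and 0.69 ± 0.17, and SLC3A2 differed by -0.04 ± 0.09. The number of genes called between 9 and 3 h was 809 (7.34%), and with a 3 h array left out it was 120 (siNupr1) or 117 (siCtrl), against 620 without the siNupr1 9 h array.

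**Figure D3:**
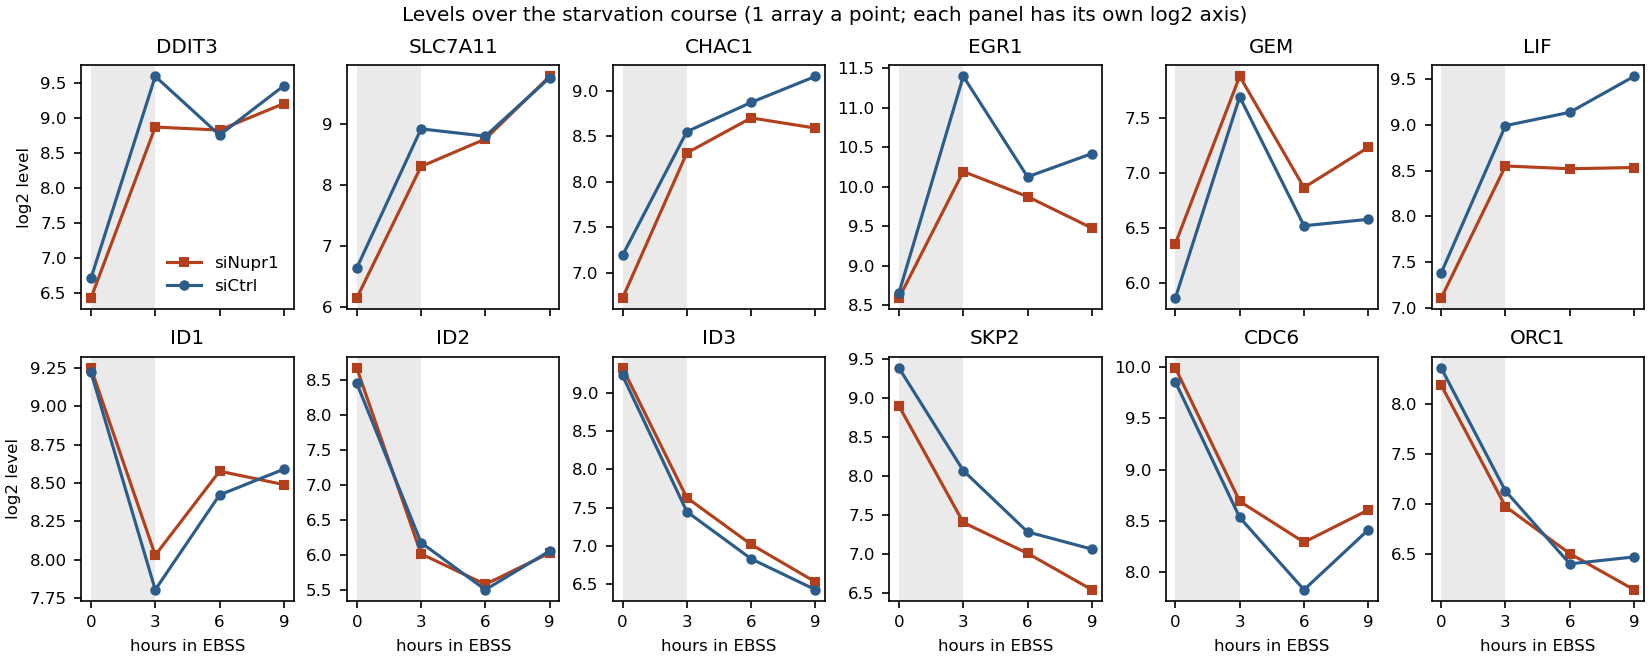
Levels of 12 genes at 0, 3, 6 and 9 h. The y axis of each panel is the log2 intensity, the x axis is hours in EBSS, and the 2 lines are siNupr1 and siCtrl cells with 1 array per point; the grey band marks the first 3 h. DDIT3, SLC7A11 and CHAC1 stay high after 3 h, EGR1 and GEM are highest at 3 h, and of the ID genes ID3 goes on falling while ID1 turns back up.

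The response was read separately in the pair with NUPR1 silenced and in the pair without. Over the 361 genes that rose, the median difference was 0.53 in the siNupr1 pair and 0.62 in the siCtrl pair, and 246 (68.1%) rose more in the siCtrl pair. Over the 1000 that fell the medians were -0.50 and -0.55, and 563 (56.3%) fell more in the siCtrl pair, where 54.3% of all tested genes had the larger difference in that pair. With 1 pair of each kind the gap between pairs has no test, and the spread of the difference over all tested genes was also smaller in the siNupr1 pair (SD 0.284 against 0.326 in the siCtrl pair). The median difference over all tested genes was lower in the siNupr1 pair too (-0.053 against -0.006 in the siCtrl pair). Among the named rises the gap was wide for CCN1 (0.79 with siNupr1 and 2.00 with siCtrl), EGR1 (1.60 and 2.74), MXD1 (0.46 and 1.53), AMOTL2 (0.22 and 1.13), JUN (0.76 and 1.59) and FOS (0.65 and 1.44). The gap was small for the rises of SLC7A11 (2.16 and 2.29) and FLCN (1.03 and 1.03) and for the fall of CDC6 (-1.30 and -1.32). TRIB3, CHAC1 and DDIT4 had the larger rise in the siNupr1 pair, with 1.34 against 1.04 in the siCtrl pair for DDIT4. Across the tested genes, which are not independent replicates, the pair differences correlated at r = 0.711.

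**Figure D4:**
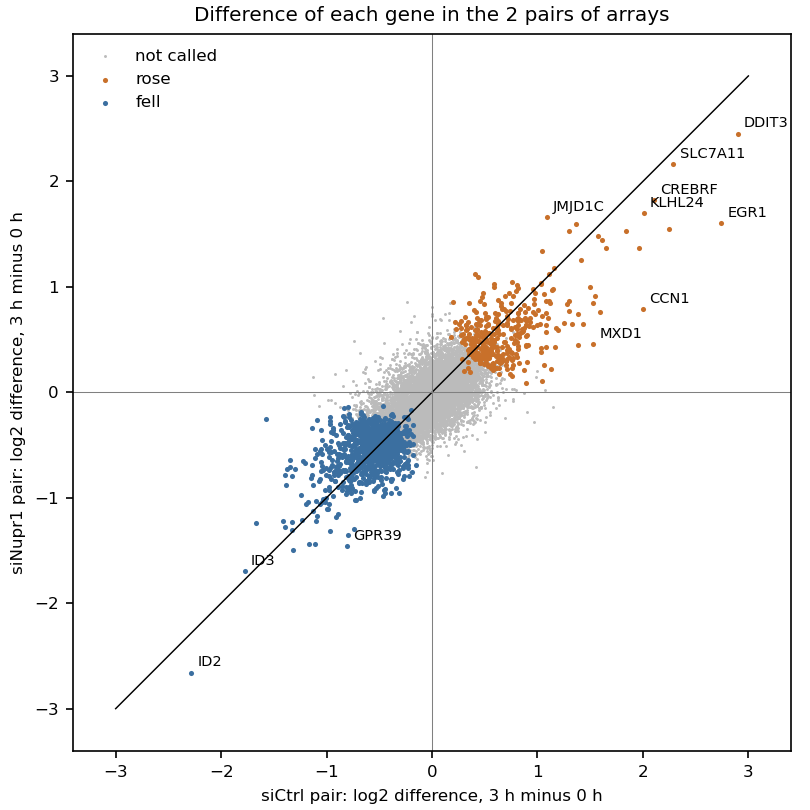
Difference of each tested gene in the siCtrl pair (x axis) and in the siNupr1 pair (y axis), both as log2 differences of 3 h minus 0 h, with genes that rose and fell coloured and the line of equal difference drawn. The coloured genes lie in the quadrants of equal sign, and EGR1 lies below the line.

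The NF-kB set measured EBSS against mock at 9 h on 6 arrays that are on neither side of the 3 h contrast, although they share its estimate of spread. The time was later, and the composition of the mock medium is not given. In it 22.6% of tested genes rose and 29.3% fell, 51.9% in all (n = 3 pairs). With the Nupr1 set fitted alone 341 genes rose and 918 fell at 3 h. Of the 361 early rises 234 (64.8%) rose there, 31 fell and 96 were not called, and of the 1000 early falls 845 (84.5%) fell there, 1 rose and 154 were not called. These make up 9.4% of that comparison's rises and 26.1% of its falls. All 39 of the early falls of at least 2-fold fell there, among them SKP2 (-1.67 ± 0.11), ERCC6L (-1.58 ± 0.10), CDC6 (-1.53 ± 0.09) and ID3 (-1.43 ± 0.09). Of the 32 early rises of at least 2-fold, 26 rose there. DDIT3 (1.85 ± 0.16), EGR1 (1.58 ± 0.16) and LIF (1.23 ± 0.12) were among these 26.

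Some early rises ran the other way at 9 h against mock. Those named here were singled out from the 31 after their values were seen, for their size or their place in a list above. SLC7A11, with 2.23 ± 0.17 after 3 h, was lower in EBSS than in mock (-0.36 ± 0.14, adjusted p = 0.0371). Its pairs were uneven, with -0.25 for siRelB, -0.78 for siRelA and only -0.03 for siCtrl. PCF11, of mRNA 3′ end formation, had 0.98 at 3 h and -1.51 ± 0.10 against mock. JMJD1C, a histone demethylase family gene, had 1.37 and -1.02 ± 0.16, and the zinc exporter SLC30A1 had 1.03 and -0.70 ± 0.09. The transporter genes SLC38A1 (0.41 and -0.48 ± 0.08) and SLC38A2 (0.42 and -0.30 ± 0.08), the ligand gene EREG (0.79 and -0.35 ± 0.08) and the interferon-stimulated gene IFIT2 (0.84 and -0.80 ± 0.12) did the same. For SLC38A2 the pairs against mock were at -0.16 for siRelB, -0.60 for siRelA and -0.14 for siCtrl. CDT1 was the 1 gene that fell at 3 h (-0.50 ± 0.14) and rose against mock (0.45 ± 0.11, adjusted p = 0.00226). Time, medium and set differ together between these contrasts, and their parts cannot be told apart.

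**Figure D5:**
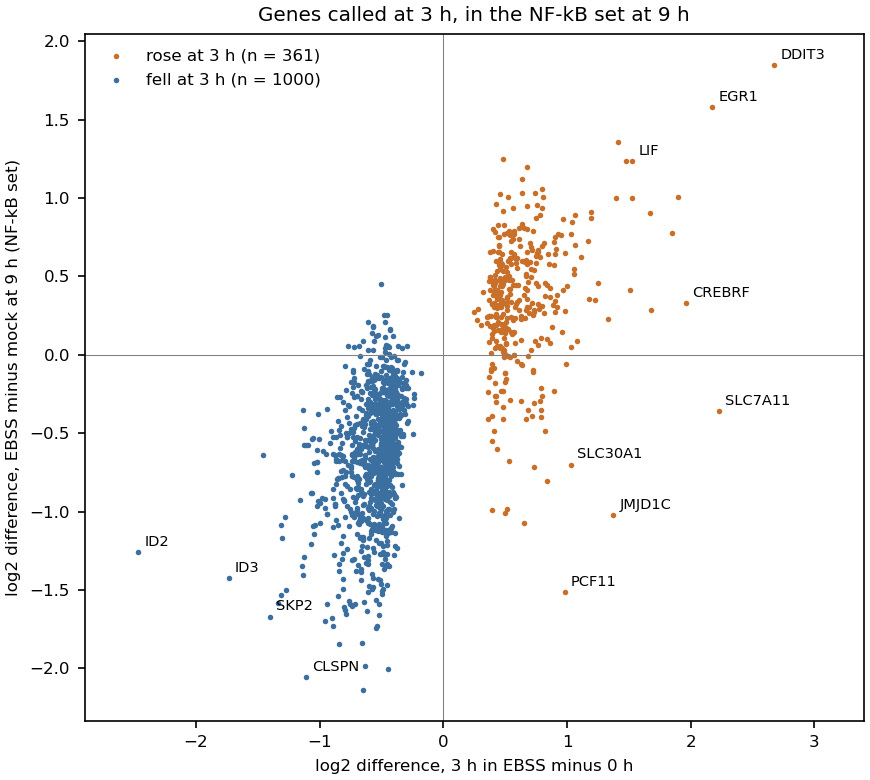
The 361 genes that rose and the 1000 that fell at 3 h. The x axis is the log2 difference of 3 h in EBSS minus 0 h and the y axis the log2 difference of EBSS minus mock at 9 h in the NF-kB set. Most points lie in the quadrants of equal sign, and SLC7A11, SLC30A1, JMJD1C and PCF11 lie below 0 on the y axis among the rises.

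Genes that rose early were shorter in the genome than those that fell. The median genomic span was 17.0 kb for the genes that rose, 30.2 kb for those that fell and 24.2 kb for the genes not called. Across 11016 genes, which are not independent, the 3 h difference and the span had a rank correlation of -0.199, with -0.164 in the siNupr1 pair and -0.186 in the siCtrl pair. With the trend with span removed from each array, 22 of 28 immediate early factors and 22 of 27 ATF4 response genes rose and 30 of 47 replication genes fell. In that setting the falls were 18 in the mitosis list, 3 among ER chaperones, 2 among nuclear pore genes, 0 among amino acid transporters and 91 over all lists, against 24, 7, 5, 2 and 120 on the deposited values.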

How the data were processed

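RNA of MiaPaCa2 cells was measured on 14 Affymetrix whole-transcript arrays. The deposited values are log2 intensities of transcript clusters, made by the authors with RMA, per the submitters' processing notes, which also name limma and give no version, annotation or build. RMA is known to compress the differences of dim probes.

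Of 28869 clusters, 19310 had 1 gene symbol in the platform annotation, 1752 had several and 7807 were not listed. The brightest cluster stood for each of the 685 genes with several, and genes under the 40th percentile of mean level (5.805) were left out, which left 11026. A limma fit (limma 3.58.1, R 4.3.3) over all 14 arrays held a term for each siRNA within each set and for time or medium, with moderated variances that follow intensity, 5 residual and 19.6 total degrees of freedom, and Benjamini-Hochberg adjustment over all tested genes. The pairing comes from the siRNA label, which is a condition and not a replicate number.

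Named genes were NUPR1, the 12 largest called rises and falls that agree in sign in both pairs, and up to 6 called members per list. The members and the 36 gene lists were chosen with earlier results of these data known. The result of 1 of the lists is not reported here, although the totals over all lists include it. Alternatives were other filters, scalings, weights, sets of arrays, cluster choices and removal of the trend with genomic span, and each array was left out in turn. Promoter letters are those of RefSeq. The fit was tested on simulated data.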

Additional observations from a re-analysis of the deposited data

Results flagged for a closer look

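Transcript clusters with no gene in the platform annotation took no part in the comparisons above. They were tested in a separate fit over all clusters, with its own filter level and adjustment, in which 381 clusters of any kind rose and 949 fell at 3 h. Among those above that filter level, 45 of 2478 (1.82%) rose and 64 (2.58%) fell. The 3.27% and 9.07% of the tested genes come from the other fit, so these shares cannot be set against them directly. Of 1244 clusters with several listed genes 38 (3.05%) rose and 60 (4.82%) fell. The largest rise among the clusters with no gene was that of cluster 8135069, which read 10.60 with siNupr1 and 10.70 with siCtrl at 3 h, against 9.57 and 9.31 at 0 h (1.21 ± 0.12, adjusted p = 2.39e-05 in limma). The 3 h arrays did not overlap the 0 h arrays for this cluster, and which gene it measures was not looked up further here.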

How the results depend on the processing

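Over the fits that left out 1 array, 136 to 473 genes rose and 220 to 1238 fell, 117 to 1012 were called between 9 and 3 h, and over all lists 80 to 139 members rose and 38 to 135 fell. The 4 arrays alone gave 806 rises and 1926 falls, and array weights gave 618 rises, 1555 falls and 414 calls between 9 and 3 h. Quantile normalization gave 654 falls. The Nupr1 set fitted alone gave 341 rises, 918 falls and 757 calls between 9 and 3 h. When the pairing by siRNA was also dropped from it (no replicate block) 73 genes rose and 95 fell, 8 were called between 9 and 3 h, 53 list members rose and 18 fell, and NUPR1 lost its call (adjusted p = 0.36 in limma). In that fit 11 ATF4 response genes, 11 immediate early factors, 11 replication genes and 0 mitosis genes were called. The share of rises larger in the siCtrl pair was 78.1% there, and of falls 48.4%, while that of falls was 62.7% after quantile normalization, 61.2% after median centring and 61.8% with the span trend removed. SNHG17 reversed to -0.020 (adjusted p = 0.939) with the mean of its clusters. The cause of these shifts was not tested. Of 147 called named genes, 75 were called in every fit without 1 array and 54 in every fit run.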

Other observations

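A few groups outside the lists were looked at after their values had been seen, so they are given as values only. Of 229 tested genes with a symbol starting ZNF, most of which encode zinc finger proteins, 35 (15.3%) fell and 1 rose, against 9.07% and 3.27% of all tested genes, and ZNF700 had the largest difference (-1.13). Of 15 tested small nuclear RNA genes 7 rose and 0 fell. These were RNVU1-15, RNVU1-1, RNVU1-6, RNVU1-19, RNU4ATAC, RNU11 and RNU4-1, which are parts of the spliceosomes, and near-identical copies among them cannot be told apart on the array. RNVU1-15 read 8.98 with siNupr1 and 8.44 with siCtrl at 3 h, against 8.37 and 7.26 at 0 h (0.89 ± 0.16), so that the lowest 3 h array lay only slightly above the highest 0 h array. Of 86 small nucleolar RNA genes 10 (11.6%, near the 9.07% of all tested genes) fell and 1 (1.16%) rose. Their median difference was 0.14 in the siNupr1 pair and -0.21 in the siCtrl pair. Of 45 replication-dependent histone genes 3 (6.67%) rose and 1 (2.22%) fell, against 3.27% and 9.07% of all tested genes, while 31 of 47 genes of DNA replication fell. No hypothesis was tested on these groups.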
